A study of Arabidopsis thaliana with 15 samples.

Results

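ASN1 and a set of marker genes of sugar starvation were followed across RNA sequencing of Arabidopsis thaliana inflorescences. The set holds 10 genes of the 28775 in the count tables, chosen by locus identifier. They are ASN1 (AT3G47340), BCAT-2 (AT1G10070), DIN10 (AT5G20250), SEN1 (AT4G35770), DIN2 (AT3G60140), BT2 (AT3G48360), DRM1 (AT1G28330, listed by RefSeq as DYL1), DIN4 (AT3G13450), AT1G80440 and AT3G15450. The genes were picked with measured values of these libraries in view, and which comparison guided the choice is not recorded. Their levels, fold changes and calls are therefore given as a description, with no p-value for a member. All 10 were among the 21716 genes tested, although DIN2 passed the filter on low counts with only 73 counts in 1 library and 13 in the next highest.

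Plant cells that run short of sugar, in darkness or at the end of a long night, switch from growth to the recovery of carbon from amino acids, cell walls and storage sugars. The SnRK1 kinase and bZIP transcription factors of the C and S1 groups raise a common set of transcripts in this state, and sucrose or glucose lowers them. The dark-inducible (DIN) genes of Arabidopsis were named for this behaviour in leaves, and ASN1, itself a dark-inducible gene, makes asparagine, a nitrogen carrier with little carbon per nitrogen. Flowers and inflorescences import their sugar from leaves.

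The 15 libraries, in 6 groups, came from tissue labelled inflorescence meristem, of Ler plants kept at 21 °C for 6 weeks. Without spray there were 2 wild-type libraries, 3 of ap1-1, which lacks normal function of the floral identity gene AP1, and 2 of pAP1>>miR STM/BP ap1-1, here called the microRNA line, in which a microRNA against STM and BP acts where the AP1 promoter is active, in the same ap1-1 mutant (the design text names ap1-4). Sprayed plants carried 35s::STM-GR, a steroid-inducible form of the meristem regulator SHOOT MERISTEMLESS under a promoter active in most tissues, and received 10 µM dexamethasone (DEX) with 0.02% Silwet (n = 3) or 0.02% Silwet alone as mock (n = 3), or were wild type given the DEX spray (n = 2), and were collected after 5 h. There is no mock-sprayed wild type, so spray and DEX cannot be told apart in wild type. No label says how replicates were grown, so the spread between libraries may be technical. SEs of fold changes come from 1 fit of all 15 libraries, which pools spread over the groups. An SE is therefore not the spread of the compared groups alone. Between pairs of replicates, the chi-square of counts per gene was 18.1 to 33.6 in ap1-1 and 14.8 in unsprayed wild type. It was 3.23 to 7.95 in the other groups.

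Libraries held 18717248 to 26539358 gene counts. STM lay at 31.2 and 31.9 CPM (counts scaled to library size) in the microRNA line against 44.1 to 50.4 CPM in ap1-1, and at 779 to 873 CPM in the STM-GR plants. Meristem markers were present, apart from CLV3, which was at 0 in ap1-1 and in both wild-type groups and at most 0.0939 CPM in the other groups. Markers of other tissue were also present: 7 photosynthetic genes summed to 11390 to 17340 CPM and 3 mature pollen genes to 222 to 1629 CPM. In such bulk tissue, fewer cells of a type and less RNA per cell cannot be told apart.

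Upstream sequence is shown for ASN1, SEN1 and BT2 as examples. ASN1 was lowest in the microRNA line, BT2 highest there, and SEN1 highest in STM-GR plants with DEX, as were BCAT-2 and AT1G80440, which are not shown. Each sequence is the 250 bases before the RefSeq start on the gene's strand, read from the TAIR10.1 assembly of the Col-0 accession, whereas the plants were Ler. ASN1 lies on chr3:17441432-17441681 (minus strand), SEN1 on chr4:16944628-16944877 (plus strand) and BT2 on chr3:17910739-17910988 (minus strand). Capitals mark matches, on either strand, to the 5 short motifs searched, CACGTG (the G-box), ACTCAT (bound by S1 bZIP factors in the proline dehydrogenase promoter), TATCCA (an amylase element of rice), TTATCC (a sugar-repressive element) and AAAATATCT (the evening element of clock-regulated genes).
ASN1: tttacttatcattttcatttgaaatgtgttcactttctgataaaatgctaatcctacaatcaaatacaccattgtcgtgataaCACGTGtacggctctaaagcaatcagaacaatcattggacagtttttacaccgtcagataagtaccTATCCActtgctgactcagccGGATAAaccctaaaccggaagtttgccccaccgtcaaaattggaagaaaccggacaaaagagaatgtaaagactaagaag
SEN1: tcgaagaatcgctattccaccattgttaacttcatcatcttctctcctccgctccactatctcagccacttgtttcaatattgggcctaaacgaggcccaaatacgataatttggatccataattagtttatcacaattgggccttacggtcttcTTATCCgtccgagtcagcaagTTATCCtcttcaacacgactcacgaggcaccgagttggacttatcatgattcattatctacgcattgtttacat
BT2: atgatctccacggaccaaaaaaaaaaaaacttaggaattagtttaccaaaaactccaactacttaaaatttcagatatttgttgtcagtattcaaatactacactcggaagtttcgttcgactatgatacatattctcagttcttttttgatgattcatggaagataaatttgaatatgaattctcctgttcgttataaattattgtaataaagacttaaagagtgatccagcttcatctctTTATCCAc

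ASN1 alone of the 10 held CACGTG, which was present in 6.49% of 27443 windows of the same length. TTATCC or its complement GGATAA was found in 4 of the 10 (ASN1, SEN1, BT2 and AT3G15450) and in 12.5% of all windows, and SEN1 had 2 copies. TATCCA or TGGATA was found in 3 of the 10 (ASN1, BT2 and AT1G80440) and in 13.6% of all windows. In BT2 the 2 motifs overlap in a single TTATCCA run ending just before the start. ACTCAT or ATGAGT was found in DYL1 and in 12.3% of windows, and AAAATATCT or its complement in none of the 10 and in 2.36% of windows. A match is a run of letters and not a measured binding site.

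ASN1 encodes a glutamine-dependent asparagine synthetase. It was measured at 133, 77.9 and 119.6 CPM in ap1-1 and at 9.05 and 8.33 CPM in the microRNA line. Wild type gave 236 and 203 CPM, and DEX-sprayed wild type 229 and 256 CPM. STM-GR plants gave 299, 307 and 319 CPM under mock and 253, 261 and 271 CPM under DEX. The order of the groups was thus STM-GR mock, STM-GR DEX, both wild types, ap1-1 and, far below, the microRNA line. The unsprayed and DEX-sprayed wild types overlapped, as did DEX-sprayed wild type and STM-GR DEX, while ap1-1 lay below every wild-type library and the microRNA line below every other library.

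**Figure D1:**
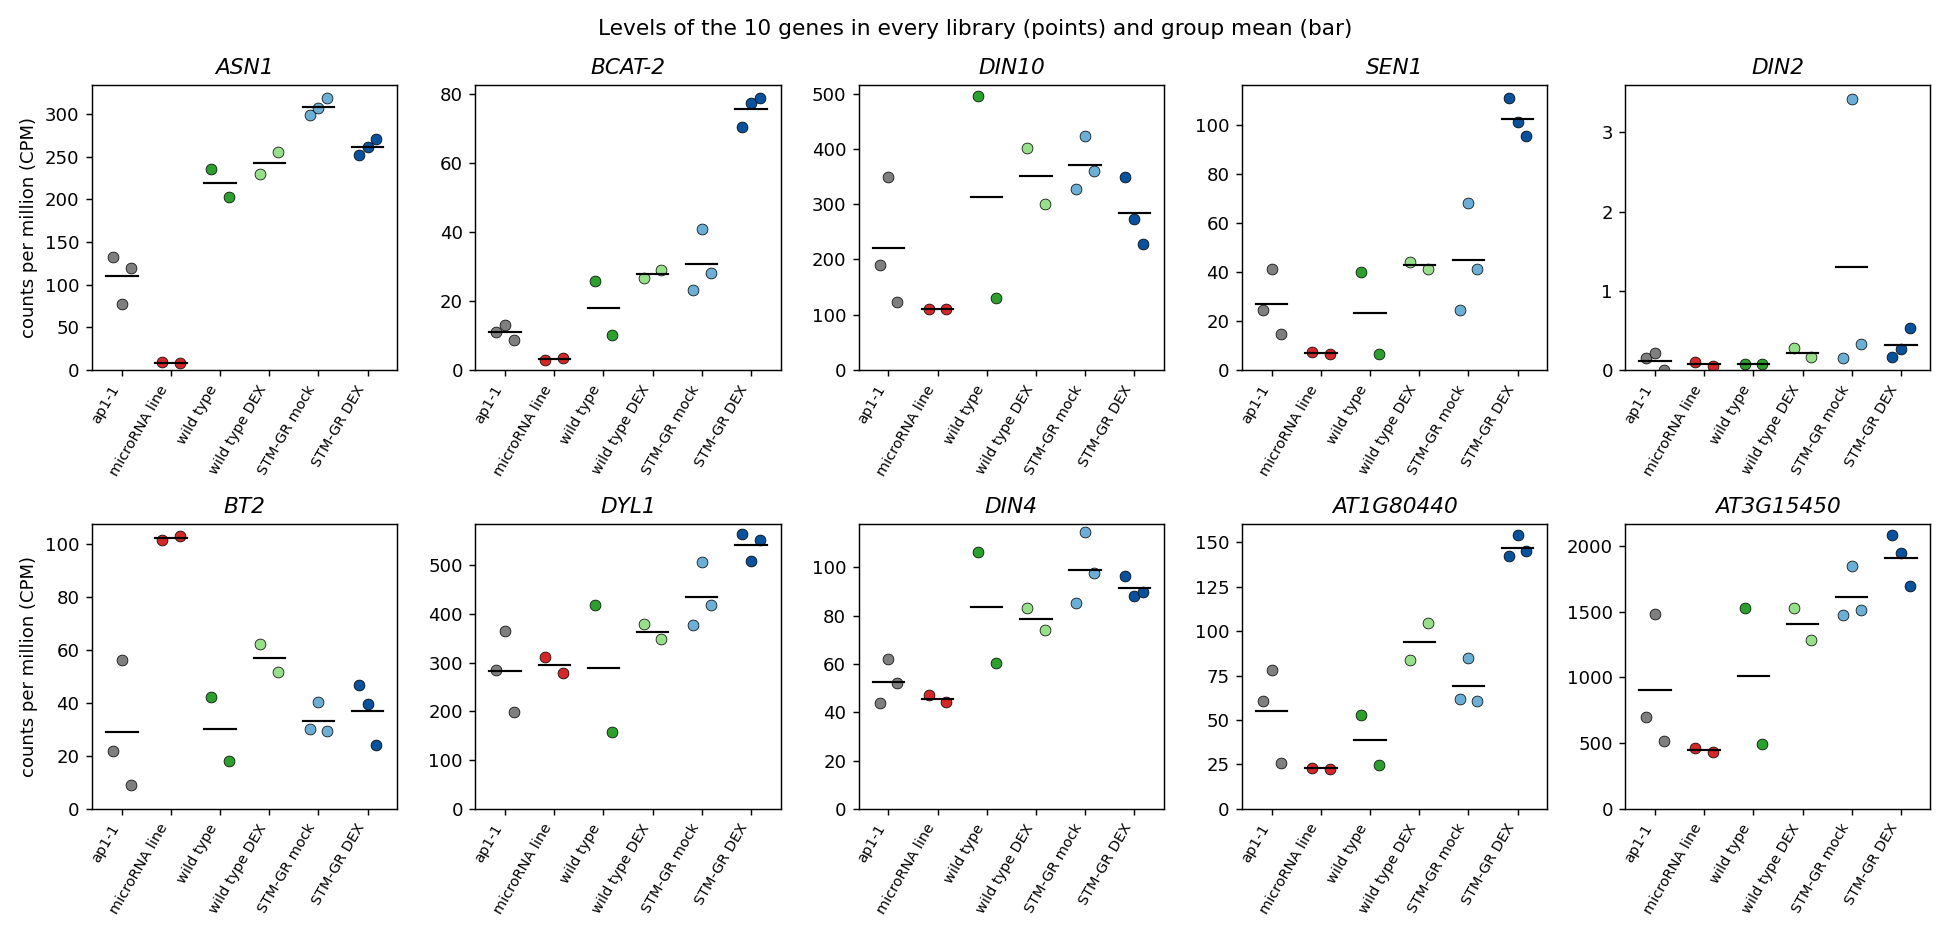
Level in CPM of each of the 10 genes (panels) in every library (points), with the group mean as a bar, on linear axes from 0. ASN1 was near 9 CPM in the microRNA line and above 77 CPM in every other library, BT2 was highest in the microRNA line, and BCAT-2, SEN1 and AT1G80440 were highest in STM-GR with DEX.

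Of the genes of branched-chain amino acid breakdown, BCAT-2, an aminotransferase of leucine, isoleucine and valine, was measured at 11.01, 13.1 and 8.72 CPM in ap1-1 and at 2.88 and 3.58 CPM in the microRNA line. It stood at 26.0 and 10.3 CPM in wild type and at 26.9 and 29.0 CPM after DEX. In STM-GR it was 23.3, 40.8 and 28.2 CPM under mock and 70.6, 77.6 and 78.9 CPM under DEX, the highest of all libraries without overlap. DIN4, a subunit of the branched-chain alpha-keto acid dehydrogenase, which takes the next step, spanned a far narrower range. Its lowest library was 43.7 CPM in ap1-1 and its highest 115 CPM in STM-GR mock, and ap1-1 at 43.7, 62.2 and 52.3 CPM overlapped with wild type at 106 and 60.5 CPM.

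SEN1, a senescence-associated dark-inducible gene, gave 24.4, 41.3 and 14.8 CPM in ap1-1, and 7.56 and 6.64 CPM in the microRNA line. Wild type gave 40.1 and 6.53 CPM, so that its second library was as low as the microRNA line. DEX-sprayed wild type gave 44.0 and 41.4 CPM, and STM-GR 24.7, 68.3 and 41.3 CPM under mock and 111, 101 and 95.5 CPM under DEX. All libraries of STM-GR with DEX exceeded all others. DIN10, of the raffinose synthase family, ran from 109.6 CPM in the microRNA line to 496 CPM in the first wild-type library, and its second wild-type library was at 131 CPM. DIN2, a beta-glucosidase, was nearly silent, with at most 13 counts in every library except the second mock library of STM-GR, which had 73 counts (3.43 CPM), so no fold is read from it.

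BT2, a BTB and TAZ domain protein that sugar and nitrogen status regulate, was the member highest in the microRNA line. It was at 102 and 103 CPM there against 22.1, 56.2 and 9.02 CPM in ap1-1, and at 17.9 to 62.3 CPM in every other group. AT1G80440 is a Kelch-repeat F-box gene also named KMD1, whose family marks type-B cytokinin response regulators and phenylalanine ammonia-lyase for degradation. It gave 60.9, 78.3 and 25.8 CPM in ap1-1, 23.2 and 22.6 CPM in the microRNA line, and 53.0 and 24.9 CPM in wild type. It gave 83.5 and 105 CPM in DEX-sprayed wild type, 61.8, 85.1 and 60.9 CPM in STM-GR under mock, and 142, 154 and 145 CPM under DEX. STM-GR with DEX was again above every other library, and DEX-sprayed wild type was above both unsprayed wild-type libraries.

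DYL1 (DRM1), a dormancy-associated gene, varied from 158 CPM in the second wild-type library to 565 CPM in STM-GR with DEX. AT3G15450, which RefSeq describes as an aluminum induced protein with YGL and LRDR motifs, was the most abundant member per length of exon in every group. It ranged from 429.5 CPM in the microRNA line to 2088 CPM in STM-GR with DEX. Per kilobase of exon, the group mean in wild type was 964 CPM per kb for AT3G15450, 184 for DYL1, 101 for DIN10, 79.8 for ASN1, 61.3 for DIN4, 22.6 for AT1G80440, 17.98 for SEN1, 11.5 for BT2, 10.4 for BCAT-2 and 0.0353 for DIN2. In the microRNA line the ASN1 level was 3.17 CPM per kb, below that of SEN1 at 5.47 and above that of BCAT-2 at 1.84. ASN1, BCAT-2, DIN10, DIN4 and AT3G15450 each overlap a gene on the opposite strand, and whether the counting used strand is not given in the sources used here. The partner of ASN1, AT3G47341, had 0 counts in all 15 libraries and that of DIN10 had at most 20, whereas the partners of BCAT-2, DIN4 and AT3G15450 had 263 to 1183 counts.

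The first comparison asks what changes when STM and BP are silenced in the AP1 domain, as the microRNA line against ap1-1. ASN1 was 12.7-fold lower (log2 fold change -3.66 ± 0.20 SE), BCAT-2 3.37-fold lower (-1.75 ± 0.39) and AT1G80440 2.41-fold lower (-1.27 ± 0.37), while BT2 was 3.54-fold higher (1.83 ± 0.49). These are the 3 members called lower and the 1 called higher at an adjusted p under 0.05 in edgeR. Of all genes tested, 11.4% were called lower and 4.87% higher. SEN1 stood at -1.92 ± 0.64, AT3G15450 at -1.02 ± 0.41 and DIN10 at -1.001 ± 0.45 on the log2 scale, none of them called. DYL1 (0.06 ± 0.30) and DIN4 (-0.20 ± 0.20) had overlapping groups. The libraries did not overlap for 7 of the 10 members, against 38.9% of all genes. ASN1 kept its call in every alternative run, but BCAT-2 lost it without the first microRNA library. BT2 lost it without the first ap1-1 library or without either microRNA library. AT1G80440 lost it without the first or second ap1-1 library or without either microRNA library, and both lost it with only the compared groups fitted. SEN1 was called lower in DESeq2, with no filter on low counts and with only the compared groups fitted. Without the third ap1-1 library 5 members were called lower, SEN1 and AT3G15450 added. The share of all genes called in that fit is not given here. Moving with this comparison, the summed mature pollen markers were 222 to 228 CPM in the microRNA line against 772 to 1003 CPM in ap1-1, and all 3 were called lower. Of the 7 photosynthetic markers 3 were called lower, LHCB2.1 (-1.68), CAB2 (-1.67) and LHCA1 (-0.73), and 2 higher, GAPA (0.52) and RCA (0.38), with summed levels of 13210 to 15040 CPM against 12260 to 17340 CPM in ap1-1. Of the meristem markers WUS was lower (-0.95) beside STM, and AP1 higher (0.49). The touch gene TCH4 was lower as well (-2.53 ± 0.34, edgeR adjusted p = 0.000101). Their part in the values of ASN1 and the others was not tested.

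The second comparison asks what active STM changes within 5 h, as DEX against mock in STM-GR plants. BCAT-2 was 2.47-fold higher (1.30 ± 0.25 on the log2 scale) and AT1G80440 2.12-fold higher (1.09 ± 0.30), the 2 members called, where 5.56% of all genes were called higher. No member was called lower, where 7.15% of all genes were. SEN1 was close to these in size (1.203 ± 0.46) without a call, although its libraries did not overlap. ASN1 stood at -0.24 ± 0.14, with all 3 DEX libraries below all 3 mock libraries. BT2, DIN10, DIN4 and AT3G15450 overlapped between the groups. The libraries did not overlap for 5 of the 10, against 40.8% of all genes. BCAT-2 kept its call in every alternative. AT1G80440 lost it whenever a library of these groups other than the second mock library was left out. With only the compared groups fitted 4 members were called higher (BCAT-2, AT1G80440, SEN1 and DYL1) and ASN1 was called lower. In that fit all genes called went from 1207 higher and 1553 lower to 2262 and 2792.

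**Figure D2:**
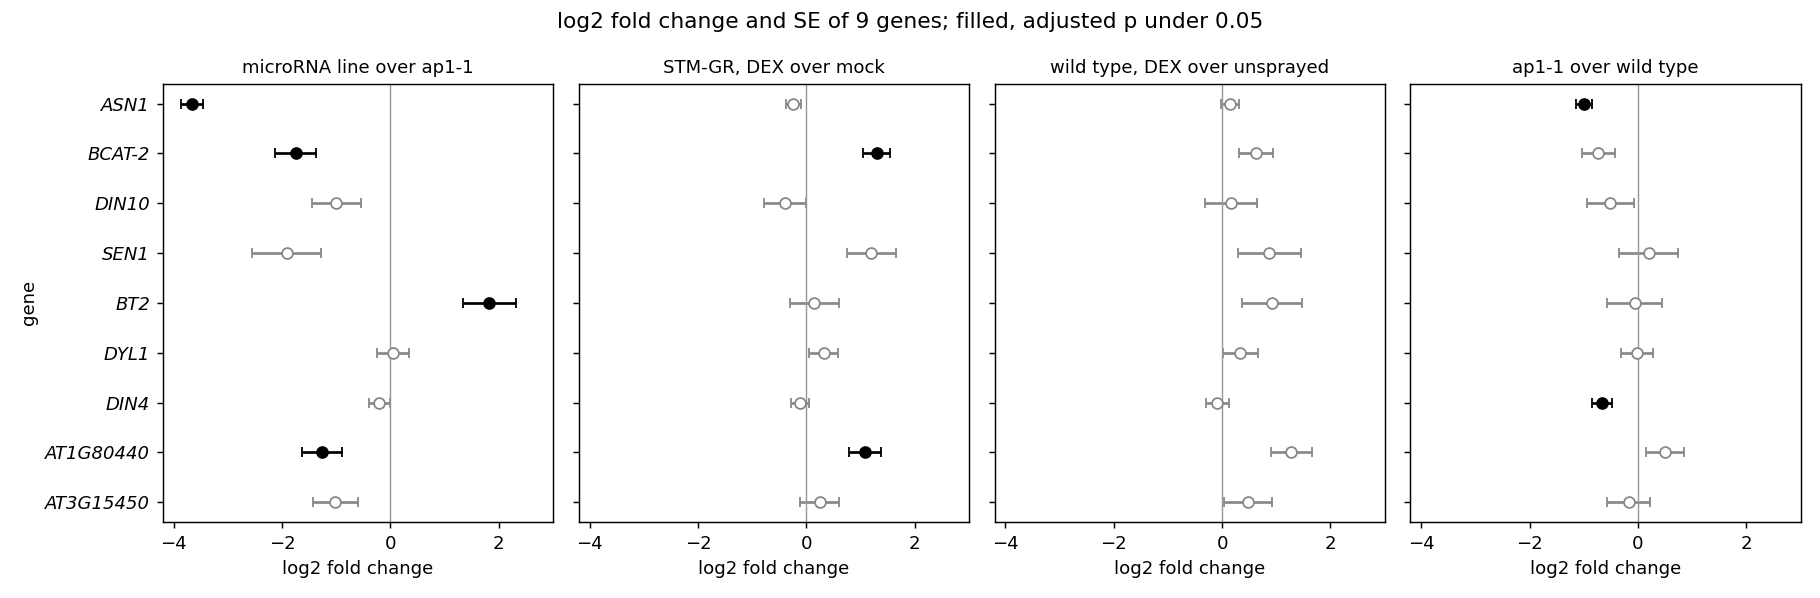
Fold change on the log2 scale (points) with its SE (whiskers) of 9 genes in 4 comparisons, DIN2 left out for its low counts; filled points are called at an adjusted p under 0.05 in edgeR. The lowest point is ASN1 at -3.66 in the microRNA line over ap1-1, and BCAT-2 and AT1G80440 are on opposite sides of 0 in the first and second panels.

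DEX-sprayed against unsprayed wild type shows what spray and DEX do without STM-GR. No member was called in edgeR in either direction, against 0.484% of all genes called higher and 0.134% lower, and 1 member was at an unadjusted p under 0.05. DESeq2 also called 0. The libraries did not overlap for 5 of the 10, against 45.8% of all genes. AT1G80440 had a log2 fold change of 1.27 ± 0.38, beside 1.09 in the STM-GR comparison, and BCAT-2 one of 0.62 ± 0.31. SEN1 stood at 0.87 ± 0.58 and ASN1 at 0.15 ± 0.17. Apart from that of ASN1, these values rest on which unsprayed library is used, since the first stood high and the second low. Without the first, AT1G80440 moved to 1.92, BCAT-2 to 1.44 and SEN1 to 2.71. Without the second, AT1G80440 moved to 0.83, BCAT-2 to 0.11 and SEN1 to 0.09. In both cases 1 unsprayed library remained, assumed to vary like the libraries of the other groups. The difference between the 2 DEX responses was 0.68 ± 0.40 for BCAT-2, -0.19 ± 0.48 for AT1G80440 and 0.33 ± 0.74 for SEN1. Its STM-GR side compares 2 sprayed groups, whereas its wild-type side holds spray and DEX together. Wherever this difference is given, a spray effect can thus enter on the wild-type side alone. No member was called for the difference in edgeR or in DESeq2, 0 were at an unadjusted p under 0.05, and 0.944% of all genes were called higher and 0.985% lower. For AT1G80440 the difference was smaller than its SE. The touch gene TCH4 was at 5.40 to 12.4 CPM in the sprayed groups against 24.1 and 37.9 CPM in unsprayed wild type, and its part in these values was not tested.

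A direct comparison of STM-GR and wild type under the same DEX spray shares the STM-GR DEX libraries with the second comparison. BCAT-2 was 2.71-fold higher (1.44 ± 0.28), the only member called, against 4.92% of all genes called higher and 5.92% lower. SEN1 stood at 1.27 ± 0.53, AT1G80440 at 0.64 ± 0.34, DYL1 at 0.58 ± 0.30 and ASN1 at 0.11 ± 0.15. The libraries did not overlap for 7 of the 10, against 50.5% of all genes. The BCAT-2 call was lost without the first DEX-sprayed wild-type library. With only the compared groups fitted 6 members were called higher, BCAT-2 with SEN1, DYL1, DIN4, AT1G80440 and AT3G15450. In that fit all genes called higher went from 1069 to 2192.

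In the ap1-1 mutant against wild type, both unsprayed, ASN1 was 1.99-fold lower (-0.99 ± 0.15) and DIN4 1.59-fold lower (-0.66 ± 0.19), the 2 members called, where 5.19% of all genes were called lower and 5.42% higher. ASN1 was also the 1 member whose libraries did not overlap, against 32.3% of all genes. The DIN4 call was lost without the first or the third ap1-1 library or without the first wild-type library, where it moved to -0.20. Without the second wild-type library BCAT-2 was called lower, and without the third ap1-1 library AT1G80440 was called higher. With only the compared groups fitted no member was called, and all genes called went from 1178 higher and 1128 lower to 94 and 140. Mock-sprayed STM-GR against unsprayed wild type, which shares libraries with the comparisons above, had the 9 members other than DIN2 at a positive log2 fold change, with ASN1 at 0.49 ± 0.16 and AT1G80440 at 0.83 ± 0.35. None was called in edgeR, 4 were at an unadjusted p under 0.05, and DESeq2 called 1, DIN2, whose mock level is set mainly by the 1 library with 73 counts. Of all genes, 0.949% were called higher and 0.741% lower, and the libraries did not overlap for 3 members and for 37.2% of all genes. Without the first wild-type library 1 unsprayed library remained, so the calls of that fit are not read. Against DEX-sprayed wild type, mock-sprayed STM-GR had no member called in edgeR or DESeq2, 2 at an unadjusted p under 0.05, and 0.0184% of all genes called higher and 0.0138% lower, with no overlap for 3 members and for 29.5% of all genes.

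In unsprayed wild type, ap1-1 and mock-sprayed STM-GR, 1 library of the group was the highest for all 8 of the genes other than ASN1 and DIN2. In the DEX-sprayed groups and the microRNA line the 8 did not share a highest library. In unsprayed wild type, with its 2 libraries, the first was 6.15-fold above the second for SEN1, 3.78-fold for DIN10, 3.10-fold for AT3G15450, 2.65-fold for DYL1, 2.53-fold for BCAT-2, 2.37-fold for BT2, 2.13-fold for AT1G80440 and 1.76-fold for DIN4. For ASN1 the ratio was 1.16. At least a 2-fold difference was seen for 7 of the 10 members, against 3.77% of all genes. In ap1-1 the second library was the highest and the third the lowest for BCAT-2, DIN10, SEN1, BT2, DYL1, AT1G80440 and AT3G15450, with BT2 spanning 6.23-fold. At least a 2-fold span was seen in ap1-1 for 5 of the 10 members, against 9.83% of all genes. ASN1 was lowest in that second library. In STM-GR under mock the second library was highest for all of the 8, while ASN1 differed by 1.07-fold across the group.

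**Figure D3:**
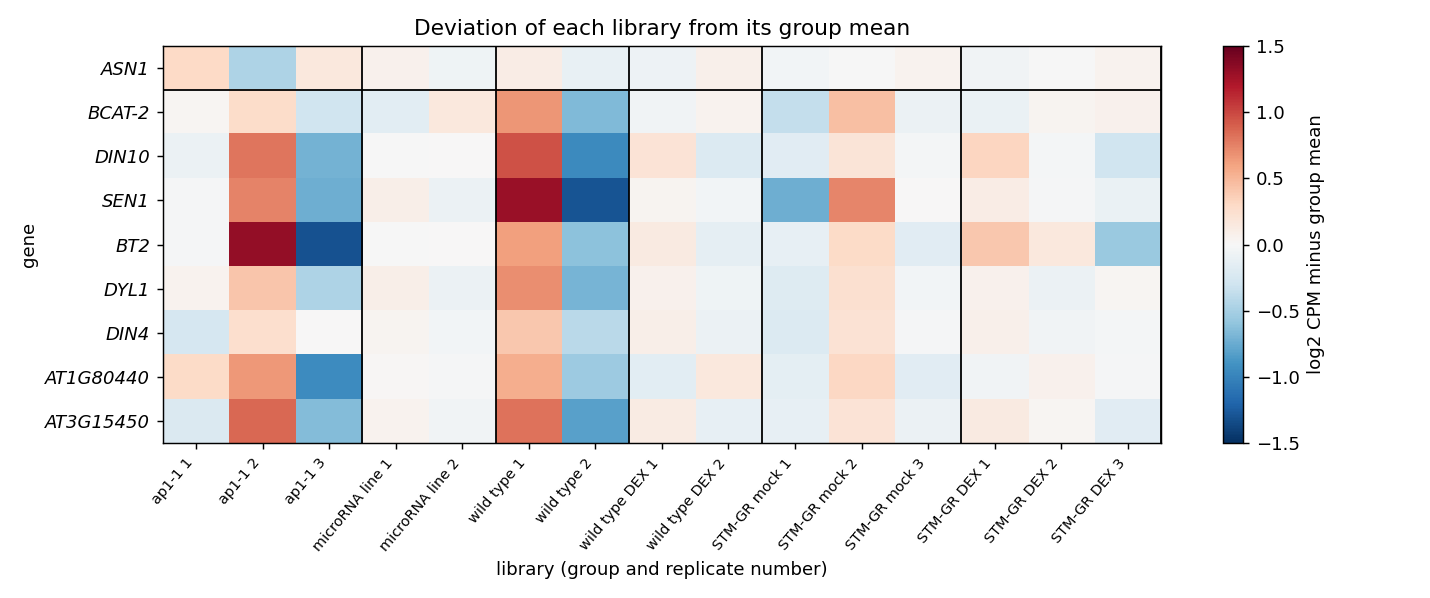
Level of 9 genes (rows) in each library (columns) as log2 of CPM plus 0.1 minus the mean of its group; red is above and blue below the group mean, and vertical lines part the groups. The first wild-type, second ap1-1 and second STM-GR mock libraries are red for all 8 genes below ASN1, whose row stays between -0.46 and 0.30.

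Across the 15 libraries after subtracting group means, the correlation of log2 CPM among the 8 genes was 0.53 to 0.981 with a median of 0.842 over 28 pairs, while ASN1 had -0.558 to -0.021 with the 8. These are descriptions, since the points share libraries and depth and the genes were picked together. In unsprayed wild type the first library also stood apart for other starvation genes. There, 8 of the 19 other genes of a sugar-starvation list were at least 2-fold higher in the first library and none lower, against 1.67% of all genes higher and 0.93% lower. They were STP1 (a hexose carrier, 269 against 79.1 CPM), PRODH1 (proline dehydrogenase), DRM2, BXL1, TPS11, TPS8, KINB1 and SIP2. None of 10 clock genes and none of 7 photosynthetic markers was 2-fold apart between these libraries (median log2 ratios of first over second 0.005 and 0.001). Nor was any of 3 mature pollen genes (median 0.61) or of 3 touch genes (median -0.65). At 1.67% and 0.93% of all genes, few or none would be 2-fold apart in lists this short. The labels give no collection time or batch, and what set the libraries apart was not tested.

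Over the libraries as a whole the highest Pearson correlations of log2 CPM with ASN1, among 18239 genes, were those of MYB21 (0.995), AT1G44542 (0.993), AT3G22910, MYB108, GH9B15 and AT5G50040 (0.991 each). MYB21 and MYB108 are transcription factors of stamen maturation downstream of jasmonate. MYB21 was at 31.9 to 48.2 CPM in wild type and mock-sprayed STM-GR, at 5.88 to 15.1 CPM in ap1-1 and at 0.0484 and 0.0532 CPM in the microRNA line. Of the members, BCAT-2 had the highest r with ASN1, 0.836, followed by DIN4 at 0.753. With group means subtracted, r with ASN1 was 0.55 to 0.873 for these 6 genes, which were picked for their r, and -0.021 for BCAT-2. The points share 6 groups, and the microRNA line is far below the rest for both ASN1 and MYB21.

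The other starvation genes were read from lists that do not hold the 10 members. Of 19 tested genes of sugar starvation, 6 fell and 0 rose in the microRNA line against ap1-1, beside 11.4% of all genes called lower; 11 were at an unadjusted p under 0.05, and DESeq2 called 0 higher. The median log2 fold change was -0.58, against -0.00071 over all genes. BGAL4, a beta-galactosidase, fell from 40.6 ± 3.24 CPM (SD, n = 3) to 14.4 ± 0.833 CPM (n = 2), a log2 change of -1.496 ± 0.23 (edgeR adjusted p = 0.000302). GDH2, glutamate dehydrogenase, fell (-0.68 ± 0.11, edgeR adjusted p = 0.000623), as did DIN9, a mannose-6-phosphate isomerase (-1.23 ± 0.21, edgeR adjusted p = 0.000698). The others that fell were EXL2, BXL1 and TPS10, the last without a call in 5 of 10 alternatives. In STM-GR with DEX against mock 1 rose and 1 fell. With only the compared groups fitted 4 rose and 2 fell, where all genes went from 1207 higher and 1553 lower to 2262 and 2792. EXL2, an EXORDIUM-like gene, rose from 289 ± 28.1 to 522 ± 21.5 CPM (SD, n = 3 each; log2 0.85 ± 0.13, edgeR adjusted p = 0.000676). PRODH1, listed by RefSeq as ERD5, fell (-1.01 ± 0.26, edgeR adjusted p = 0.0209), without a call when the second or the third DEX library or the first or the third mock library was left out. In DEX-sprayed wild type no gene of the list was called in edgeR, 0 were at an unadjusted p under 0.05, and DESeq2 called 0. In ap1-1 against wild type 2 fell, BGAL4 (-1.41 ± 0.20, edgeR adjusted p = 0.000458) and AT1G21400, of the branched-chain dehydrogenase (-0.64 ± 0.09, edgeR adjusted p = 0.000667), the latter without a call when only the compared groups were fitted. Under the same DEX spray, STM-GR over wild type had 2 that rose and 1 that fell, a count of higher genes that went to 12 with only the compared groups fitted. In that fit all genes called higher went from 1069 to 2192.

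**Figure D4:**
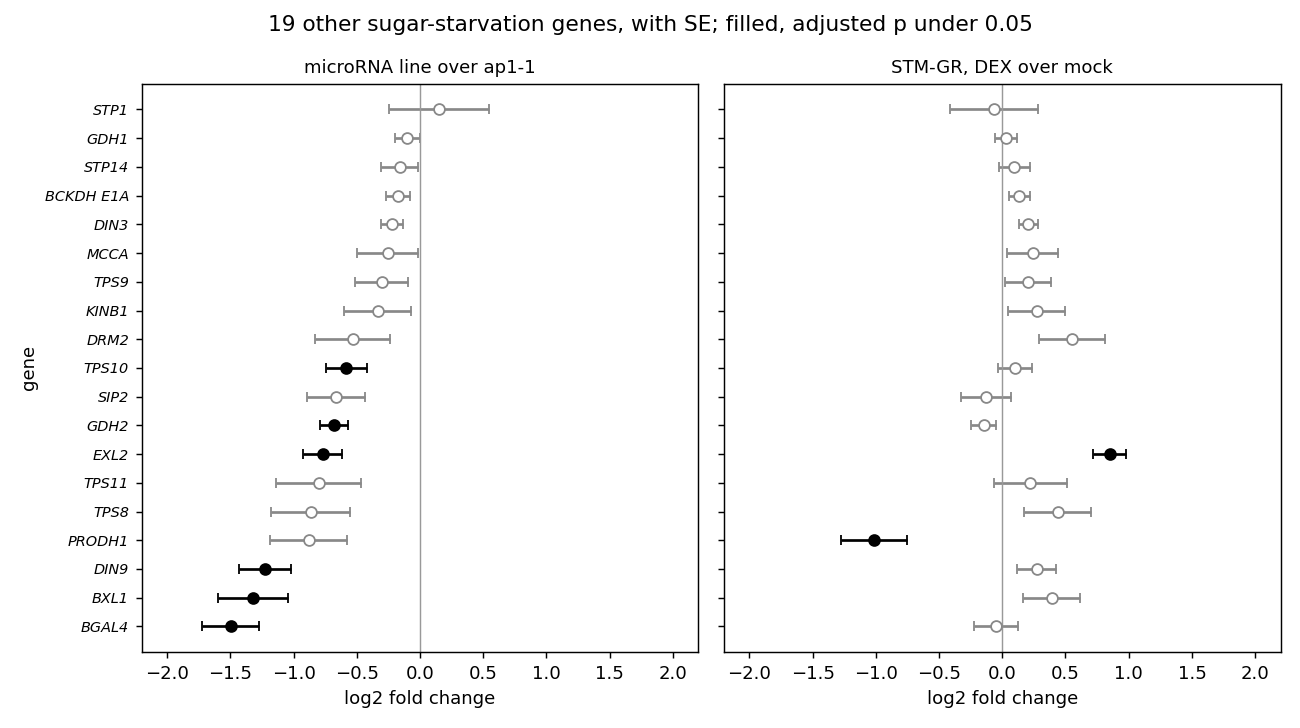
Fold change on the log2 scale (points) with SE (whiskers) of the 19 other sugar-starvation genes tested, in the microRNA line over ap1-1 and in STM-GR with DEX over mock; filled points are called at an adjusted p under 0.05 in edgeR. All but STP1 lie below 0 on the left, 6 of them filled, and on the right EXL2 is filled above 0 and PRODH1 below.

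Genes of nitrogen and amino acid metabolism changed in STM-GR with DEX against mock, 1 up and 4 down of 19, beside 5.56% and 7.15% of all genes. GLN1;1, a cytosolic glutamine synthetase that makes the substrate of ASN1 and is listed by RefSeq as GSR 1, rose from 59.1 ± 3.50 to 213 ± 21.4 CPM (SD, n = 3 each; log2 1.85 ± 0.10, edgeR adjusted p = 2.14e-08). Wild type with and without DEX had 58.2 ± 0.310 and 62.3 ± 6.10 CPM (SD, n = 2 each), and the difference between the 2 DEX responses was 1.95 ± 0.15 (edgeR adjusted p = 5.64e-06). MGL, methionine gamma-lyase, fell (-0.70 ± 0.11, edgeR adjusted p = 0.000522), and so did GLN1;2, listed as GSR2 (-0.51 ± 0.08, edgeR adjusted p = 0.000655). In the microRNA line against ap1-1, 4 of the 19 fell and 2 rose. MGL fell there from 40.5 ± 8.10 to 12.8 ± 0.894 CPM (log2 -1.66 ± 0.13, edgeR adjusted p = 3.5e-06) and GLU1, a ferredoxin-dependent glutamate synthase, rose (0.80 ± 0.09, edgeR adjusted p = 3.22e-05). MGL also fell in ap1-1 against wild type (-0.77 ± 0.12, edgeR adjusted p = 0.000851), a call lost with only the compared groups fitted.

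The wider branched-chain breakdown list, 18 genes downstream of or parallel to BCAT-2, was read as well. In STM-GR with DEX 2 rose, IVD, isovaleryl-CoA dehydrogenase (0.58 ± 0.12, edgeR adjusted p = 0.00395), and AT2G26800, hydroxymethylglutaryl-CoA lyase (0.30 ± 0.05, edgeR adjusted p = 0.00141), and BCAT-1 fell (-0.37 ± 0.09, edgeR adjusted p = 0.0142). The BCAT-1 call was lost without the second or the third DEX library or the first mock library. In wild type, DEX-sprayed over unsprayed, AT2G26800 stood at 0.26 ± 0.06, IVD at 0.35 ± 0.14 and BCAT-1 at -0.20 ± 0.11, none of them called. Under the same DEX spray, STM-GR over wild type had 3 genes of the list called higher and 1 lower. No gene of the list was called for the difference between the 2 DEX responses. In the microRNA line 2 rose and 2 fell, with mtLPD1 at 0.48 ± 0.08 (edgeR adjusted p = 0.00102) the lowest p. Genes that sugar raises include those of anthocyanin synthesis, and 3 of 11 rose in the microRNA line and 1 fell. LDOX rose from 7.22 ± 1.84 to 29.5 ± 0.467 CPM (log2 2.03 ± 0.23, edgeR adjusted p = 2.84e-05), DFR rose (2.50 ± 0.41, edgeR adjusted p = 0.000661), and GBSS1, a starch synthase, fell (-1.02 ± 0.14, edgeR adjusted p = 0.000143). In STM-GR with DEX 4 of these 11 fell and 0 rose in edgeR, with 4 at an unadjusted p under 0.05. They were LDOX (-1.55 ± 0.28, edgeR adjusted p = 0.00201), BAM5, a beta-amylase (-0.98 ± 0.20, edgeR adjusted p = 0.00532), DFR and CHS, and the DFR call was lost without any 1 of the 3 DEX libraries, without the second mock library and with only the compared groups fitted. DFR under mock was 1.74 ± 1.75 CPM (SD, n = 3) with 1 library at 3.76 CPM, and its log2 change ran from -2.70 to -1.09 over the alternatives. LDOX was at 3.69 ± 1.49 CPM under mock and 1.24 ± 0.186 CPM under DEX (SD, n = 3 each). In wild type LDOX was at 2.78 ± 0.362 CPM unsprayed and 1.91 ± 0.264 CPM after DEX (SD, n = 2 each). Under the same DEX spray, STM-GR over wild type had 1 of the 11 called lower, BAM5 (-1.45), and 0 higher.

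Relatives of the members were tested as well. Of 19 tested paralogs, 3 rose and 1 fell in STM-GR with DEX. BCAT-1, the paralog that fell, is also counted in the branched-chain list. KMD4 (AT3G59940), of the same F-box family as AT1G80440, rose from 101 ± 8.08 to 207 ± 9.10 CPM (log2 1.03 ± 0.14, edgeR adjusted p = 0.000246). In wild type KMD4 was at 95.2 ± 2.41 CPM unsprayed and 157 ± 38.2 CPM after DEX (SD, n = 2 each), and the difference between the 2 DEX responses was 0.31 ± 0.22 (edgeR adjusted p = 0.77). KMD2 (AT1G15670) rose (0.68 ± 0.16, edgeR adjusted p = 0.0105), a call lost without the third mock library. BT3, a relative of BT2, rose (0.54 ± 0.14, edgeR adjusted p = 0.0196). In the microRNA line 2 rose and 3 fell. The lowest adjusted p was that of AT3G22850, which fell (-0.73 ± 0.14, edgeR adjusted p = 0.00192), a call kept in 8 of 10 alternatives. ASN3, an ASN1 relative, rose (0.34 ± 0.09, edgeR adjusted p = 0.0185), in contrast in sign to ASN1, although the call was lost in 4 of 10 alternatives. ASN2 stood at 61.2 ± 7.32 CPM in ap1-1 and 64.0 ± 0.242 CPM in the microRNA line. Of the regulators of the pathway, SnRK1 subunits and bZIP factors, 13 of 18 were tested. In the microRNA line 0 of these were called in edgeR, 1 was at an unadjusted p under 0.05, and DESeq2 called 0. In STM-GR with DEX TPS1, trehalose-6-phosphate synthase, fell (-0.41 ± 0.07, edgeR adjusted p = 0.00101). KINB2 (AT4G16360), a SnRK1 beta subunit, rose (0.27 ± 0.08, edgeR adjusted p = 0.0357), a call lost in 5 of 11 alternatives. The S1 factors bZIP1, bZIP2, bZIP11 (listed as GBF6), bZIP44 and bZIP53 were listed at 0 counts in all 15 libraries, so they could not be followed.

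Of 10 senescence genes 3 rose and 0 fell in STM-GR with DEX (edgeR; 6 at an unadjusted p under 0.05). NAP, a senescence NAC factor, rose from 12.2 ± 4.36 to 31.3 ± 3.86 CPM (log2 1.36 ± 0.24, edgeR adjusted p = 0.00164). In wild type NAP was at 6.34 ± 0.0794 CPM unsprayed and 13.0 ± 2.95 CPM after DEX (SD, n = 2 each), and the difference between the 2 DEX responses was 0.32 ± 0.39 (edgeR adjusted p = 0.931). Of the genes of the 10 pathway lists, GLN1;1, MGL and BAM5 were the ones called for that difference, and BAM5 lost its call in 8 of 15 alternatives. In the microRNA line 3 fell and 1 rose, with NYC1, a chlorophyll b reductase, rising (0.57 ± 0.08, edgeR adjusted p = 0.000103). Of 19 autophagy genes, ATG8H alone was called in the microRNA line, lower (-0.91 ± 0.15, edgeR adjusted p = 0.00051), and 2 were called higher in STM-GR with DEX, AtATG18a (0.25 ± 0.07, edgeR adjusted p = 0.0342) and ATG8F (0.31 ± 0.09, edgeR adjusted p = 0.0377). Each lost its call in 6 of 11 alternatives, and the count ran from 0 to 10, the latter with only the compared groups fitted. In that fit all genes called higher went from 1207 to 2262. Of 10 clock genes 5 fell and 1 rose in the microRNA line, with CCA1 at 7.69 ± 0.514 CPM in ap1-1 and 2.06 ± 0.508 CPM in the microRNA line (log2 -1.88 ± 0.17, edgeR adjusted p = 6.76e-06). In STM-GR with DEX 4 of the 10 rose, PRR5 (0.49 ± 0.07, edgeR adjusted p = 0.000279), FKF1 (0.51 ± 0.07, edgeR adjusted p = 0.000382), CCA1 (0.68 ± 0.12, edgeR adjusted p = 0.00143) and PRR9. FKF1 was at 40.4 ± 1.35 CPM under mock and 57.6 ± 3.16 CPM under DEX (SD, n = 3 each). Wild type had 58.3 ± 4.82 CPM unsprayed and 61.9 ± 0.55 CPM after DEX (SD, n = 2 each). Against DEX-sprayed wild type, mock-sprayed STM-GR had FKF1 (-0.61 ± 0.08) and PRR5 (-0.55 ± 0.08) called lower. Both calls were lost without the first or the third mock library. Under the same DEX spray, 2 clock genes were called higher in STM-GR over wild type, CCA1 and PRR9. FKF1 was also the clock gene that rose in the microRNA line (0.47 ± 0.08, edgeR adjusted p = 0.000803). Transcripts of this kind cycle through the day, sampling times are not given, and their part in the levels of the 10 genes was not tested.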

How the data were processed

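RNA was sequenced in 15 libraries with, per the labels' protocols, standard Illumina library preparation. The deposited values are read counts per gene in each library. The submitters' processing notes name the aligner TopHat2 (2.0.6), the counter HTSeq (0.62) and the build TAIR10, and the authors' role for each is otherwise unstated. The strand setting is not given in the sources used here. A deposited table of normalized values was not used. The counts covered 28775 genes, and 5 entries naming no gene (5.49% to 6.63% of reads) stayed out of library sizes and tests. Depth was 18717248 to 26539358 gene counts.

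The tests used edgeR (4.0.16, R 4.3.3) with its expression filter at a minimum count of 10, TMM scaling, and a quasi-likelihood fit of all 15 libraries in 6 groups, with Benjamini-Hochberg adjustment over 21716 genes and a call at an adjusted p under 0.05. CPM use TMM library sizes. The SE is the log2 fold change over the square root of F. The fit was tested on simulated data. A same-number check of replicates gave correlations of -0.133 to 0.207 over 33 pairs, 2 of them over 0.1, so numbers were not taken as pairs. Alternatives were RLE scaling, DESeq2 1.42.0, no filter, only the groups compared, a replicate block and leaving out each replicate.

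The 10 members, the 10 pathway and 4 marker lists and their tests were chosen with earlier results of these data known. Some lists share genes, among them BCAT-1, BCAT3, ASN3, GDH2 and PRODH1, so the counts of different lists are not independent. All members are named. The called genes of a list that are named with statistics were chosen after their values were seen. They are not always those with the lowest adjusted p. Others named in a count of 6 or fewer, or shown for a level, were chosen in the same way. The 6 genes most like ASN1 have the highest Pearson r of log2 CPM among genes with a mean of at least 1. Names, exons and the 250 upstream bases come from RefSeq TAIR10.1, which held all 10 members, and the count files give no coordinates. Ratios between libraries use a pseudocount of 0.1 CPM for counts of genes past 2-fold.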

Additional observations from a re-analysis of the deposited data

How the results depend on the processing

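Counts of members called were recomputed under each alternative, 170 values in all, of which 24 moved by over 1.5 times, and no result reversed. RLE scaling moved none of these counts, and under DESeq2 the only one past 1.5 times was mock-sprayed STM-GR over unsprayed wild type, from 0 to 1 member higher (DIN2), while the microRNA line went from 3 to 4 lower with SEN1. Fitting only the groups compared gave 0 members higher in the microRNA line over ap1-1, 4 higher and 1 lower in STM-GR with DEX over mock, 0 lower in ap1-1 over wild type, and 6 higher in STM-GR over wild type under DEX. With a replicate block, ap1-1 over wild type had 1 member called lower (ASN1) in place of 2, and no other count of members moved, while all genes called higher in the microRNA line went from 1057 to 887. What replicates with the same number share beyond that number is not recorded. The cause of these moves was not tested.

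Leaving out 1 library gave 0 to 1 member higher and 1 to 5 lower in the microRNA line over ap1-1, 1 to 2 higher in STM-GR with DEX over mock, and 0 to 3 higher in DEX-sprayed over unsprayed wild type. It gave 0 to 1 higher and 1 to 3 lower in ap1-1 over wild type, 0 to 5 higher in mock-sprayed STM-GR over unsprayed wild type, and 0 to 1 higher in STM-GR over wild type under DEX. DEX-sprayed wild type and mock-sprayed STM-GR had their highest counts over unsprayed wild type without the first wild-type library, with 1 unsprayed library left. The share of all genes called in each of these fits is not given here. These counts are therefore not read as particular to the members. Over all genes, fitting only the groups compared moved the calls from 1057 higher and 2475 lower to 344 and 1603 in the microRNA line over ap1-1, from 1207 and 1553 to 2262 and 2792 in STM-GR with DEX over mock, from 1178 and 1128 to 94 and 140 in ap1-1 over wild type, and from 1069 and 1286 to 2192 and 2394 in STM-GR over wild type under DEX. DEX-sprayed over unsprayed wild type had 105 higher and 29 lower, 60 and 6 with only these groups, and 165 and 77 in DESeq2. In STM-GR with DEX over mock, that fit moved the lists to 7 nitrogen genes lower, 7 paralogs higher and 3 lower, 4 branched-chain genes higher and 2 lower, and 8 clock genes higher. For the microRNA line it left 0 branched-chain genes lower and 1 higher, 1 nitrogen gene higher, and 0 paralogs higher and 1 lower. Calls of single list genes were followed for at most 3 called genes per list and comparison, those of lowest adjusted p. Other called genes named above, such as BT3 and CHS, were not among them. Of 1156 values for the genes followed, 175 lost their call and none reversed. Depth limits DIN2, with 0 to 73 counts, most.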
